A study of Mus musculus with 21 samples.

Results

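The genes described here were the integrins and laminins, chosen by their symbols and not by any measured value: 37 genes of the 32285 in the gene table, made up of 18 integrin alpha chains, 8 integrin beta chains and 11 laminin chains. Integrins are receptors made of an alpha and a beta chain that span the cell membrane, hold the cell to the matrix or to other cells, and pass the contact on to the cytoskeleton. Laminins are trimers of an alpha, a beta and a gamma chain that form the sheet-like core of the basement membrane under endothelium and epithelium and around muscle and nerve. In tissue the same receptor families guide vessel growth, anchor fibroblasts to fibronectin and let leukocytes stop and cross a vessel wall.

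The data were single-cell RNA counts from mT/mG mice of both sexes, young adults whose every cell carries membrane tdTomato because no Cre was present. Fragments of the MT-ret melanoma, a mouse malignant melanoma (MM) whose cells carry no tdTomato, were placed under the skin of these hosts, the primary tumor was later removed, and the mice were followed until lung metastases grew. The samples were of 4 kinds: the host cells of the tumor microenvironment (TME) of primary tumors, the TME of lung metastases, MM cells sorted from either site, and lungs of unchallenged mice that had received no tumor. The model therefore has a lung tissue control and no skin control, so that in any comparison of primary tumor with unchallenged lung the tumor and the organ cannot be told apart. The submitters' tissue label reads lung for all samples, whereas the library names give skin for the primary tumor. TME cells were sorted as living tdTomato+ cells with or without removal of CD45+ leukocytes, and which gate each library had is not stated in the labels or the methods.

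Libraries with identical counts were counted once, and the library names of replicates 1-3 were summed as 1 library for each TME group. The submitters' titles group them in that way, and these sums hold 3 mice in primary tumor and 2 in lung metastasis. The 16 libraries, with 100359 cells, were then 4 of primary tumor TME, 4 of lung metastasis TME, 4 of unchallenged lung and 2 of MM cells from each tumor site. Their depth ran from 1777036 to 60339415 UMIs (unique molecular identifiers, each counting 1 captured RNA molecule). Primary tumor TME replicate 6, unchallenged lung replicate 6 and the MM library of primary tumor replicate 4 were shallow per cell, with medians of 1203, 1605 and 1654 UMIs beside at least 3050 in the others. Libraries came from 3 runs, of which the first gave the pooled replicate 1-3 of each TME group and unchallenged lung replicate 1, the second replicate 4 and the third replicates 5 and 6, and kept libraries shared 1093 cell barcodes. In whole libraries, fewer cells of a type and less RNA per cell cannot be told apart, so that levels are given within cell types. A level is the number of UMIs of a gene per 1000000 UMIs (CPM) of that cell type in a library. Types were clusters named from marker genes that include no integrin or laminin, these genes were left out of the clustering, and each name stands for cells like that type. A further 12581 cells in clusters without a clear name were left out of the named types. Lung metastasis TME replicate 5 was not of host cells only, since 40.5% of its cells (2094) were named MM. In the other TME libraries at most 2.31% were. A pair of groups is called by cluster number instead, because 1 cluster in each had a marker of another type and none of its own among its 10 leading genes. These are endothelial clusters 6, 8 and 15, with markers of sprouting vessels such as Esm1 and Angpt2, and phagocyte clusters 6, 9 and 10, with complement genes.

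Across 23 cell types with at least 20 cells in 2 or more libraries, each gene had its own distribution, and the levels are a description with no test, since the types were drawn from the same cells. All 37 genes kept the same highest type when cells under 1000 UMIs were left out. The libraries of the highest and the second type overlapped for most genes, and both types were picked from these same values. MM marker genes also had UMIs in host cells, as given below, so that a few CPM in a type were not read as expression there.

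**Figure D1:**
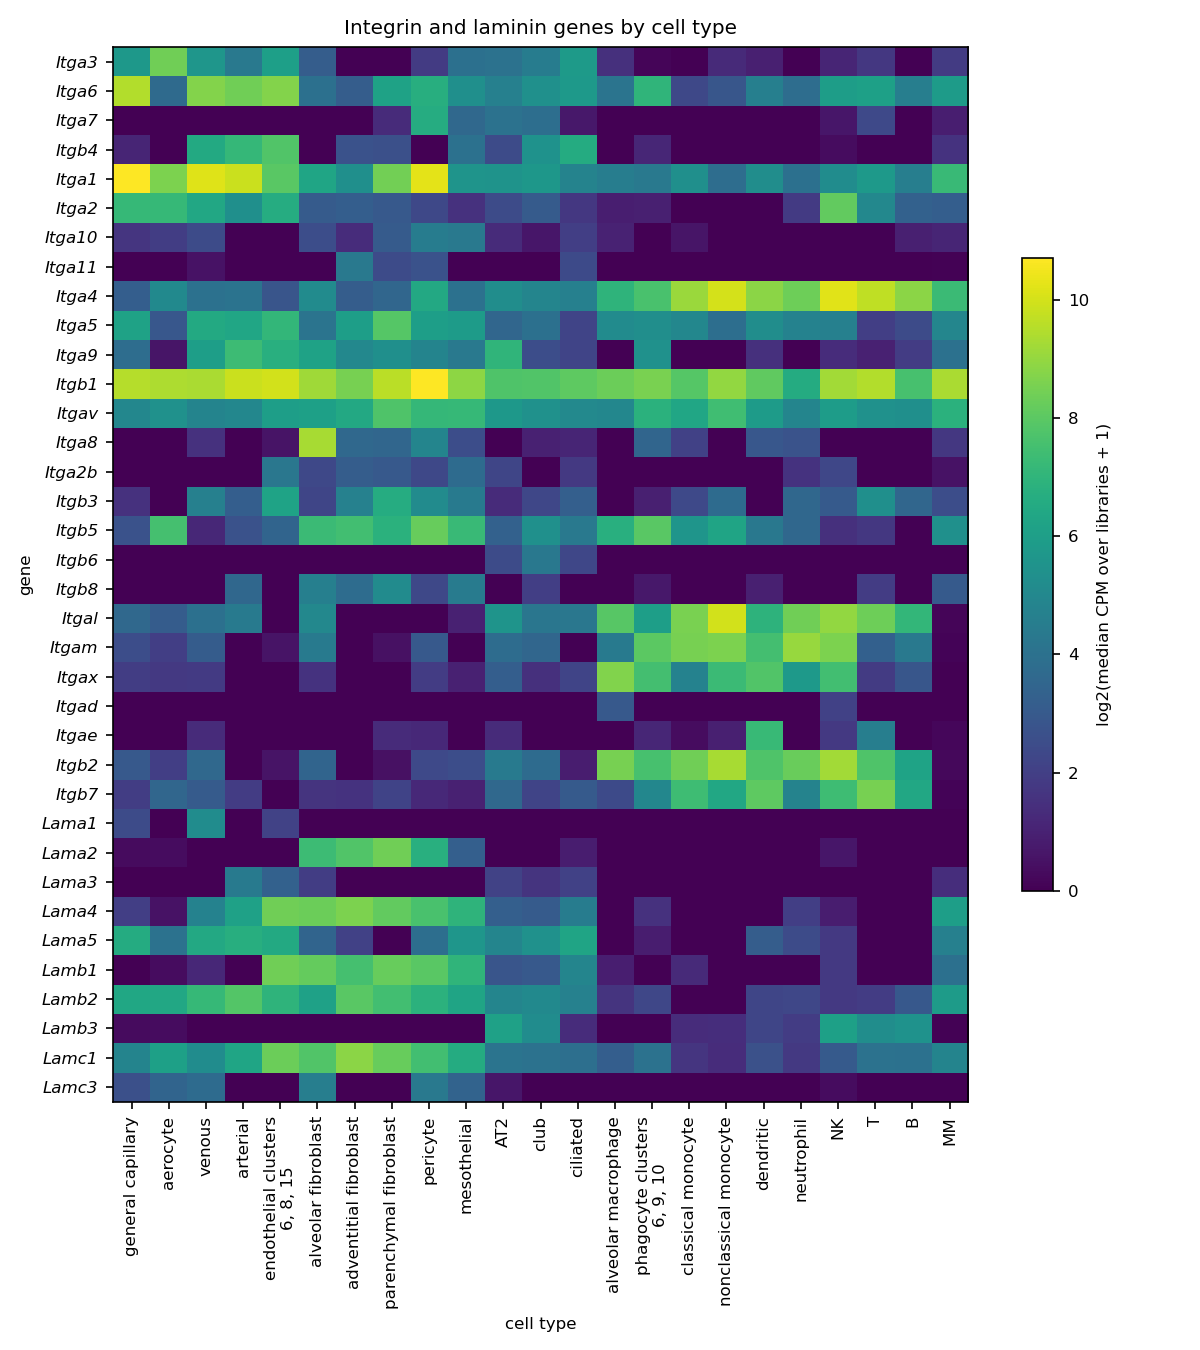
Heat map of 36 integrin and laminin genes (vertical axis) in 23 cell types (horizontal axis), with colour for the log2 of the median CPM over libraries plus 1. Leukocyte integrins such as Itgal and Itgb2 stand out in monocytes and NK cells, and laminin chains in fibroblasts and endothelial clusters 6, 8 and 15.

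The laminin chains divided between endothelium, fibroblasts and epithelium. Lama4, the alpha chain of vessel basement membrane, had a median of 392 CPM in adventitial fibroblasts (254 to 548, 5 libraries) and 340 CPM in endothelial clusters 6, 8 and 15 (231 to 538, 6 libraries), so that these neighbours overlapped. Lamb1, a beta chain of many laminins, was at 331 CPM in the same endothelial clusters (255 to 478), with parenchymal fibroblasts next at 297 CPM (274 to 388) and overlapping. Lamc1, the usual gamma chain, led in adventitial fibroblasts at 457 CPM (330 to 493). All of them are chains of a vessel laminin, and each of them was high in both fibroblasts and these endothelial clusters.

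Lama2, the alpha chain of muscle and mesenchymal basement membranes, was led by parenchymal fibroblasts at 332 CPM (234 to 405, 3 libraries), followed by adventitial fibroblasts at 220.0 CPM (136 to 339) and alveolar fibroblasts at 161 CPM (64.4 to 207). Lamb2, a beta chain of mature basement membranes, was highest in adventitial fibroblasts at 247 CPM, and Lamc3, a minor gamma chain, in alveolar fibroblasts at 22.8 CPM. Endothelial alpha chains were Lama5, with 105 CPM in arterial cells (97.0 to 120, 3 libraries), Lama3 with 20.0 CPM in arterial cells and Lama1 with 36.3 CPM in venous cells. Lamb3, a beta chain of the epithelial anchoring laminin, was highest in alveolar type II (AT2) cells with 69.5 CPM. NK cells had nearly the level of AT2 cells in Lamb3, at 67.6 CPM (23.2 to 101), and their ranges overlapped.

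The receptor chains Itga1, Itga3, Itga6 and Itgb4, which bind collagen or laminin, had their highest medians in endothelium. Itga1, a collagen receptor chain, reached 1681 CPM in general capillary cells (1471 to 2916, 6 libraries), above pericytes at 1234 CPM (1170 to 1302). Itga6, a laminin receptor chain, also led in general capillary cells at 704 CPM (382 to 829) and overlapped endothelial clusters 6, 8 and 15 at 427 CPM. Itga3, another laminin receptor chain, was highest in aerocytes, the thin capillary cells of gas exchange, at 339 CPM (171 to 402), with no overlap with endothelial clusters 6, 8 and 15 at 66.1 CPM (33.6 to 129). Itgb4, the beta partner of Itga6, had 221 CPM in these clusters over a wide range of 19.3 to 336.

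Mural cells and fibroblasts held a further group. Itgb1, the beta chain shared by most matrix receptors, was at 1676 CPM in pericytes (1542 to 1811, 2 libraries) and 649 CPM in MM cells (529 to 1164, 5 libraries). The libraries of MM cells here were the sorted ones and lung metastasis TME replicate 5. Pericytes also led for Itgb5 (298 CPM), for Itga7 (97.3 CPM), a laminin receptor chain of muscle, and for Itga10 (21.8 CPM), a collagen receptor chain. Itga8, the receptor chain for nephronectin, was near to a marker of alveolar fibroblasts, at 630 CPM (265 to 1087, 4 libraries) against 28.4 CPM in pericytes (19.3 to 37.6) as the next type. Parenchymal fibroblasts, which reached 20 cells in primary tumor libraries only, led for Itga5 (235 CPM), Itgav (216 CPM), Itgb3 (99.1 CPM) and Itgb8 (34.5 CPM), chains of fibronectin, vitronectin and latent TGF-beta receptors. Itga11, a fibroblast collagen receptor chain, was at 19.0 CPM in adventitial fibroblasts (7.86 to 39.4), and Itgb6, the epithelial partner of Itgav, at 18.4 CPM in club cells (7.65 to 77.2).

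The leukocyte integrins had their highest medians in leukocytes of blood or tissue. Itga4, which binds VCAM1, had 1221 CPM in NK cells (864 to 1225, 5 libraries), overlapping nonclassical monocytes at 1033 CPM. Itgal and Itgb2, the chains of LFA-1, led in nonclassical monocytes at 1019 and 629 CPM. Itgam, the alpha chain of Mac-1, was at 538 CPM in neutrophils (372 to 638), and Itgax at 405 CPM in alveolar macrophages (312 to 510.1), where Itgad had its highest median too, at 6.85 CPM (3.55 to 15.1), a level not read as expression and overlapping NK cells (0 to 10.4). Itgae, a receptor chain for E-cadherin, was at 150.0 CPM in dendritic cells (102 to 238), Itgb7 at 367 CPM in T cells, and Itga2, a collagen receptor chain, at 279 CPM in NK cells. In MM cells all of Itgal, Itgam, Itgax, Itgae, Itgb2 and Itgb7 had medians of at most 0.165 CPM, while Itga1 stood at 152 CPM, Itga4 at 156 CPM and Itgav at 115 CPM. The last named genes were Itga9, a receptor chain for tenascin and VCAM1, with 160 CPM in arterial cells (40.4 to 171), and Itga2b, the platelet chain, with 17.9 CPM in endothelial clusters 6, 8 and 15 (2.75 to 38.2).

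Endothelial cells were compared between tissues first, since all 3 host tissues had 4 libraries with at least 20 blood endothelial cells (38 to 1497 cells). In primary tumors these cells carried far more of the chains Lama4, Lamb1 and Lamc1 than in unchallenged lung, together with Itgb3, Itgb4, Itga5 and Itga9, and less Itga1, Itgb5 and Itga4. Of 19 integrin and laminin genes that passed the filter on low counts, 13 were called at an adjusted p under 0.05 by edgeR's quasi-likelihood test, 10 higher and 3 lower in primary tumor. Over all 9182 genes tested, 24.3% were called. The median log2 fold change was 0.96 over the 19 genes and -0.02 over all genes. The markers of endothelium (Pecam1, Cdh5 and others) were present in all 12 libraries.

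Lamb1 counted 194, 236, 299 and 468 CPM in primary tumor replicates 1-3, 4, 5 and 6, and 0, 0.312, 1.44 and 1.93 CPM in unchallenged lung replicates 1, 4, 5 and 6. Lama4 was at 246, 267, 410.3 and 526 CPM in primary tumor and 8.56, 4.68, 15.3 and 8.67 CPM in lung. Lamc1 was at 281, 220.4, 299 and 504 CPM against 43.2, 30.3, 54.6 and 53.0 CPM. For all 3 chains the lowest primary tumor library lay above the highest lung library. On the log2 scale Lamb1 rose by 8.61 ± 1.05 (SE; adjusted p = 4.5e-05, edgeR), Lama4 by 5.39 ± 0.73 (adjusted p = 9.3e-05) and Lamc1 by 2.98 ± 0.49 (adjusted p = 0.00041). Because Lamb1 rested on 12 UMIs in all lung endothelium against 819 in primary tumor, its ratio of pooled CPM was 448, with a counting interval of 255 to 871.

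Lama3, an alpha chain of the anchoring laminin, was at 15.4, 16.8, 23.1 and 14.3 CPM in primary tumor and at 0.714, 0.781, 1.62 and 0.963 CPM in lung, with no overlap. It rose by 4.07 ± 0.49 on the log2 scale (adjusted p = 4.3e-05, edgeR). Lama3 had pooled counts of 41 UMIs in primary tumor and 17 in lung, and passed the filter on low counts through the primary tumor libraries. Further chains of the same vessels did not pass the test, Lama5 with 102, 87.0, 86.7 and 98.1 CPM against 71.0, 69.0, 63.9 and 55.9 CPM (adjusted p = 0.056), and Lamb2 with 126 to 146 CPM against 83.8 to 114 CPM (adjusted p = 0.069). Their groups did not overlap either, and no test compared one chain with another.

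Among receptors, Itgb3, the beta chain of the vitronectin receptor, was at 35.8, 49.1, 57.8 and 92.0 CPM in primary tumor against 3.21, 2.65, 8.10 and 9.63 CPM in lung. Itgb4 was at 297, 237, 212 and 234 CPM against 18.2, 6.56, 37.6 and 26.0 CPM, and Itga9 at 107, 89.9, 125 and 124 CPM against 20.0, 13.6, 33.7 and 27.0 CPM. In each of these the groups stood apart. Itgb3 rose by 3.62 ± 0.60 (adjusted p = 0.00046, edgeR), Itgb4 by 3.59 ± 0.63 (adjusted p = 0.00069) and Itga9 by 2.38 ± 0.33 (adjusted p = 0.00012) on the log2 scale.

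Itga5, the alpha chain of the main fibronectin receptor, was at 133, 129, 127 and 156 CPM in primary tumor against 51.7, 62.0, 61.8 and 55.9 CPM in lung, a rise of 1.36 ± 0.22 (adjusted p = 0.0004, edgeR). Itga2b, at 20.5, 36.5, 21.2 and 12.3 CPM against 0.357, 0.156, 0.360 and 0 CPM, rose by 6.25 ± 0.61 (adjusted p = 8.2e-06), and its pooled counts were 53 and 4 UMIs. Itga2b passed the filter on low counts through the primary tumor libraries, where it is high. Its fold depends on the prior count, so that little is read from its call. The 6 platelet markers summed to 0 to 10.2 CPM in primary tumor, with 0 or 1 of them holding a UMI in a library, and to 4.22 to 6.84 CPM in lung, with 1 to 5 of them, and the part of platelet RNA was not tested. Itgav, which pairs with Itgb3, was at 35.8, 47.7, 79.0 and 59.3 CPM against 24.3, 28.4, 40.5 and 35.6 CPM, groups that overlapped, and rose by 0.96 ± 0.32 (adjusted p = 0.038). The call for Itgav was lost when primary tumor replicate 4, 5 or 6 or lung replicate 1, 4 or 6 was left out (log2 fold changes of 1.03, 0.75, 0.94, 0.84, 0.89 and 0.99).

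The receptors that fell included the collagen receptor chain of resting lung capillaries. Itga1 was at 399, 152, 179 and 257 CPM in primary tumor against 1005, 1446, 1551 and 1656 CPM in lung and fell by 2.43 on the log2 scale (SE 0.47, adjusted p = 0.0013, edgeR). Itgb5, another partner of Itgav, was at 10.2, 9.83, 9.63 and 4.09 CPM against 66.0, 29.2, 75.1 and 99.2 CPM and fell by 2.96 (SE 0.49, adjusted p = 0.00044). Neither gene overlapped between the groups. Itga4 was at 0, 5.62, 1.93 and 7.16 CPM against 15.7, 16.1, 16.0 and 51.0 CPM and fell by 2.12 (SE 0.73, adjusted p = 0.046). That call was lost without any 1 of the 4 primary tumor libraries (log2 -1.98, -2.24, -1.90 and -2.59 without replicates 1-3, 4, 5 and 6) or without lung replicate 6 (-1.61). Markers of leukocytes moved with it: in lung endothelium the NK list summed to 1.43 to 86.7 CPM, the neutrophil list to 6.71 to 917 CPM and the B cell list to 7.49 to 177 CPM, against 0 to 4.09, 3.85 to 29.5 and 0 to 5.12 CPM in primary tumor. Other lists went the other way, the complement macrophage list with 56.2 to 198 CPM in lung and 325 to 1269 CPM in primary tumor, the dendritic list with 91.3 to 99.9 against 124 to 159 CPM and the list of nonclassical monocytes, a type high in Itga4, with 964 to 1314 against 1652 to 3045 CPM. Their part was not tested. Levels of the chains Itga6, Itgb1, Itga3 and Itga2 differed by less than the test could call (adjusted p of 0.94, 0.27, 0.08 and 0.79).

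**Figure D2:**
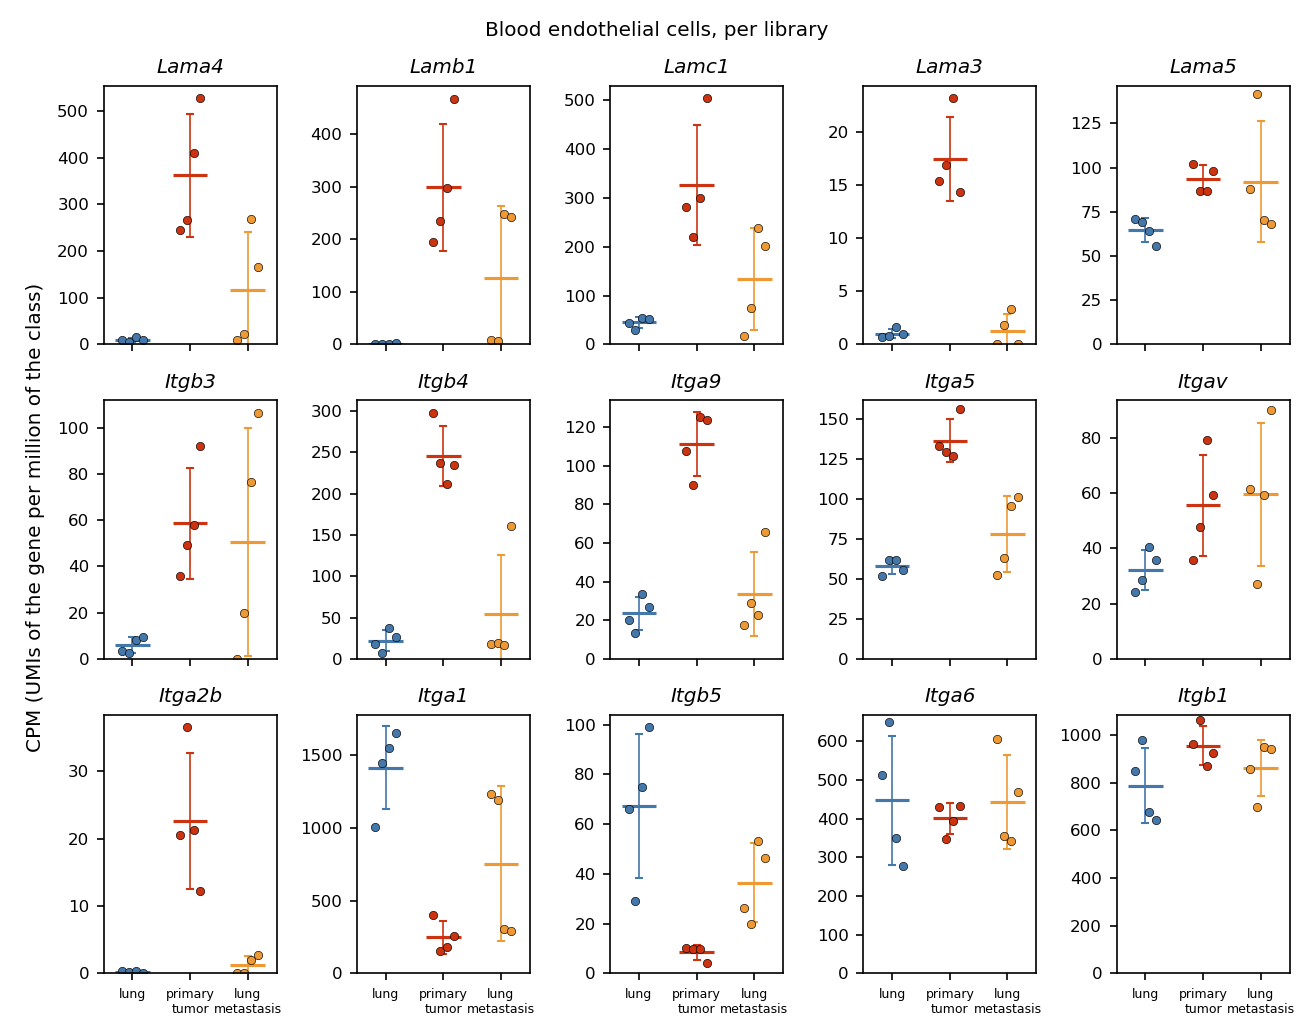
CPM in blood endothelial cells (vertical axis of each panel) of 15 integrin and laminin genes in unchallenged lung, primary tumor TME and lung metastasis TME; each point is a library, the line the mean and the bar the SD. Lamb1 lies between 194 and 468 CPM in the 4 primary tumor libraries and at most at 1.93 CPM in lung, while the 4 metastasis libraries divide into 7.18 and 8.77 against 243 and 248 CPM.

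The endothelial clusters differed between the tissues. Clusters 6, 8 and 15 together made up 68.4% to 97.0% of the named blood endothelial cells in primary tumor libraries. The named lung endothelium was mostly general capillary cells, aerocytes and venous cells. In primary tumor replicates 1-3, 4, 5 and 6 the named cells were 38, 100, 78 and 135 of the 51, 126, 117 and 256 cells in all endothelial subclusters. The others were unnamed or lymphatic. Cluster 8, led by Adamts18, Meox2 and Fbln2, gave 15, 81, 65 and 118 cells in primary tumor replicates 1-3, 4, 5 and 6 and none in lung. Cluster 6, led by Ildr2, Lamb1 and Trp53i11, was mostly of metastasis, with 274 and 28 cells in replicates 5 and 6 and 1 to 8 cells in a primary tumor library. Cluster 15 held cycling cells with Mki67 and Top2a, 45 of them in metastasis replicate 5. The tumor sites were thus represented by different clusters, and their grouping rests on 3 to 5 of 6 markers of sprouting vessels. Cluster 8 raised 3 of these 6 markers. It also raised 5 of 8 fibroblast, 5 of 8 parenchymal fibroblast, 4 of 8 complement macrophage and 3 of 7 venous markers. Clusters 6 and 15 raised 8 of 8 MM markers, and cluster 15 also 3 of 8 fibroblast markers. Subclusters of endothelium could take endothelial names only.

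In each cluster with at least 20 cells in a library, Lamb1 was high: 250.2, 318 and 476 CPM in cluster 8 of primary tumor replicates 4, 5 and 6, 363 and 437 CPM in cluster 6 of metastasis replicates 5 and 6, and 211 CPM in cluster 15 of metastasis replicate 5. In the capillary, aerocyte, venous and arterial cells of lung and metastasis Lamb1 never passed 13.2 CPM, and Lama4 was at most 72.7 CPM, in arterial cells of lung replicate 4. Unchallenged lung held 4 cells of these clusters in all, too few for a comparison within them. The difference in clusters moved with the laminin and integrin differences, and its part in them was not tested.

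Cluster 8 had a parenchymal fibroblast marker (Col15a1) and none of its own among its 10 leading genes. The test was therefore repeated without it, a choice made after the data were seen. The primary tumor libraries then held 13 to 23 cells, and a minimum of 10 cells was used. Of 17 genes tested 9 were called against lung, 7 higher and 2 lower, where 12.5% of all genes were called. Lamb1 (8.01 ± 1.08, adjusted p = 0.00018, edgeR), Lama4 (5.09 ± 0.72, adjusted p = 0.00029), Lamc1 (2.55 ± 0.49, adjusted p = 0.0027), Lama3, Itgb3, Itgb4, Itga9 and Itga1 kept their calls. Itga3 was called in addition, lower in primary tumor (-1.28 ± 0.39, adjusted p = 0.042). Itga5 (0.85, adjusted p = 0.065), Itgb5 (-1.999, adjusted p = 0.065) and Itgav (0.54, adjusted p = 0.51) lost theirs, and Itga2b and Itga4 did not pass the filter on low counts.

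**Figure D3:**
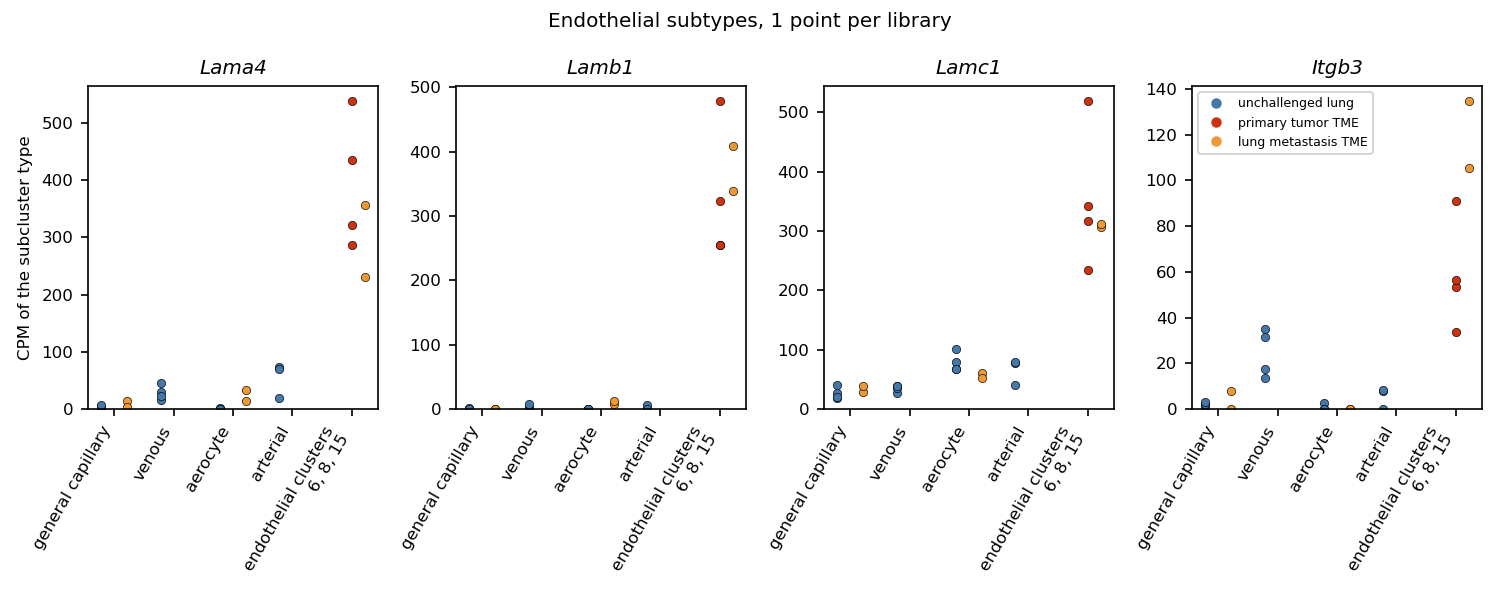
CPM of Lama4, Lamb1, Lamc1 and Itgb3 (vertical axes) by endothelial type or clusters (horizontal axis), each point a library with at least 20 cells of them, coloured by tissue. Lamb1 is at 255 CPM or above in every point of clusters 6, 8 and 15 and at most 13.2 CPM elsewhere.

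RNA of other cells moved with the tissue as well. In endothelial cells the 8 MM markers summed to 183 to 1220.5 CPM in primary tumor (7 or 8 markers with a UMI), to 447 to 5009 CPM in metastasis and to 1.41 to 7.70 CPM in lung. The 8 fibroblast markers summed to 911 to 1964 CPM in primary tumor, 105 to 1303 CPM in metastasis and 51.5 to 549 CPM in lung, and fibroblasts hold Lama4, Lamb1 and Lamc1 themselves. By cluster, the MM markers reached 4539 and 1612 CPM in cluster 6 of metastasis replicates 5 and 6, and the fibroblast markers 408, 964 and 1750 CPM in cluster 8 of primary tumor replicates 4, 5 and 6. Their part in the endothelial differences was not tested. In the 4 sorted MM libraries Lamb1 was at 6.90 to 29.5 CPM, Lama4 at 43.0 to 102 CPM and Lamc1 at 25.3 to 45.5 CPM.

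In lung metastases the endothelium was mixed. Against unchallenged lung, 3 of the 19 genes were called and all were higher, Lamb1, Lama4 and Itgb3, where 2.61% of all genes were called. The 2 comparisons with lung share the same 4 lung libraries, and the metastasis libraries divided by run. Lamb1 was at 8.77 and 7.18 CPM in replicates 1-3 and 4, and at 248 and 243 CPM in replicates 5 and 6. Lama4 was at 8.77, 23.3, 269 and 167 CPM, and Itgb3 at 0, 19.8, 76.6 and 107 CPM in the same order. Replicates 5 and 6, which came from the third run, were high in all 3 genes, while replicate 1-3 lay within the lung range in Lama4 and, with a value of 0, below it in Itgb3. The rises over lung were 7.45 ± 1.04 for Lamb1 (adjusted p = 0.0011, edgeR), 3.88 ± 0.69 for Lama4 (adjusted p = 0.0051) and 3.49 ± 0.61 for Itgb3 (adjusted p = 0.0043) on the log2 scale. Without endothelial cluster 8 the same 3 genes were called, of 17 tested, where 2.39% of all genes were called.

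The share of endothelial clusters 6, 8 and 15 among named blood endothelial cells followed the same division. It was 7.84% and 4.76% in metastasis replicates 1-3 and 4 and 63.1% and 49.4% in replicates 5 and 6. General capillary cells made up 70.6% and 69.5% of the named cells in replicates 1-3 and 4. The paper states that metastasis samples held some adjacent tissue without tumor, and the part of such tissue was not tested. In replicates 1-3, 4, 5 and 6 the named cells were 51, 105, 512 and 79 of the 95, 133, 1179 and 210 cells in all endothelial subclusters. Within the third run, with replicates 5 and 6 of each tissue, 8 of 22 genes were called, 6 higher and 2 lower, where 19.2% of all genes were called. There Lamb1 rose by 7.35 ± 0.46 (adjusted p = 1.5e-05, edgeR), Lama4 by 4.20 ± 0.42 (adjusted p = 0.00018), Itgb3 by 3.47 ± 0.35 (adjusted p = 0.00019) and Lamc1 by 2.15 ± 0.34 (adjusted p = 0.0021). Itgav rose by 0.99 ± 0.30 (adjusted p = 0.041), Itgal, the LFA-1 alpha chain, was at 0.666 and 0 CPM in metastasis and 25.03 and 69.3 CPM in lung and fell by 6.04 (SE 1.01, adjusted p = 0.0035, a fold that depends on the prior count) and Itga1 fell by 2.33 (SE 0.33, adjusted p = 0.0012). In the same libraries the NK list summed to 0.666 and 2.73 CPM in metastasis and 33.5 and 86.7 CPM in lung, and the neutrophil list to 54.6 and 183 against 278 and 917 CPM. The list of nonclassical monocytes, the type highest in Itgal, is not given for these libraries, so that the direction of the leukocyte lists as a whole is not shown here. The part of leukocyte RNA in the fall of Itgal was not tested. Of metastasis and lung in this run, Itgal was high in lung alone, so that little is read from its call. Lama1, an alpha chain of early basement membranes, also rose there, by 4.01 ± 0.62 (adjusted p = 0.0023): it was at 34.6 and 137 CPM in metastasis replicates 5 and 6, at 4.86 and 4.82 CPM in the lung libraries of that run, and at 0 in primary tumor replicates 4, 5 and 6. Without metastasis replicate 1-3 the number of genes called against lung was 5, beside 3.59% of all genes, and without replicate 4 it was 6, beside 7.28%.

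Between the tumor sites 6 of the 19 genes were called, 4 lower and 2 higher in metastasis, where 7.33% of all genes were called. Itga2b was at 0, 0, 2.00 and 2.73 CPM in metastasis and fell by 3.85 from primary tumor (SE 0.68, adjusted p = 0.0032, edgeR). Lama3, at 0, 1.80, 3.33 and 0 CPM, fell by 2.95 (SE 0.61, adjusted p = 0.0081), and Itga9, at 17.5, 28.7, 22.6 and 65.6 CPM, fell by 1.78 (SE 0.37, adjusted p = 0.0082). None of these 3 genes overlapped primary tumor. Itga2b and Lama3 passed the filter on low counts through the primary tumor libraries, where they are high, and their folds depend on the prior count. In cluster 6 of metastasis replicates 5 and 6 Itga9 was at 29.7 and 13.7 CPM, and in cluster 8 of primary tumor replicates 4, 5 and 6 at 91.0, 117 and 136 CPM, values of different clusters with no test. With replicates 5 and 6 only, the Itga2b and Lama3 calls were lost (-2.83, adjusted p = 0.067, and -2.74, adjusted p = 0.07, edgeR).

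Itgb4 was at 17.5, 19.8, 16.7 and 161 CPM and fell by 2.26 (SE 0.65, adjusted p = 0.045, edgeR), with metastasis replicate 6 alone near primary tumor. The call for Itgb4 was lost without metastasis replicate 1-3, 4 or 5 (log2 -2.09, -1.95 and -1.85) and without any 1 of the primary tumor libraries (-2.19, -2.27, -2.32 and -2.29). Itgb5 was at 26.3, 19.8, 53.3 and 46.4 CPM and rose by 2.29 ± 0.53 (adjusted p = 0.015), and Itga4 was at 0, 18.0, 61.3 and 30.0 CPM and rose by 2.81 ± 0.74 (adjusted p = 0.03). The Itgb5 call was lost without metastasis replicate 5 (1.88) or primary tumor replicate 6 (1.93), and the Itga4 call without metastasis replicate 5 (1.91) or any 1 of the primary tumor libraries (2.66, 2.92, 2.57 and 3.27). Over all alternatives, the Itgb4 call was lost in 9 of 16 and the Itgb5 call in 4 of 16. Some leukocyte lists differed with Itga4: in metastasis endothelium the B cell list summed to 10.7 to 136.5 CPM, the NK list to 0 to 77.2 CPM and the neutrophil list to 8.98 to 183 CPM, beside the lower primary tumor ranges above. The lists of nonclassical monocytes, dendritic cells and complement macrophages are not given for metastasis, so that the direction of the leukocyte lists as a whole is not shown. In metastasis replicate 5, the library with the most Itga4, the B cell and NK lists were at 10.7 and 0.666 CPM. Their part was not tested. Lamb1, Lama4, Lamc1 and Itgb3 were not called between the sites (adjusted p of 0.43, 0.18, 0.15 and 0.96), with metastasis libraries both far below and within the primary tumor range. By the library names kept, replicates 5 and 6 of both sites came from the same 2 mice and the pooled replicates 1-3 shared mice as well. Replicate 4 came from a different mouse at each site. The counts of replicates 5 and 6 also stood under replicates 7 and 8 at both sites, whose names give other mice. Those of metastasis replicate 6 stood under a name of metastasis tumor cells as well. With the replicate number as a block 8 genes were called, where 8.20% of all genes were called. Lama4 (-2.11, adjusted p = 0.016, edgeR) and Lamc1 (-1.46, adjusted p = 0.036) were then called too, both lower in metastasis. Without endothelial cluster 8, by contrast, 1 of 17 genes was called between the sites, Lama3 (-3.98 ± 0.91, adjusted p = 0.048), where 0.944% of all genes were called. Itga9 (-1.55, adjusted p = 0.18), Itgb4 (-1.93, adjusted p = 0.19) and Itgb5 (1.34, adjusted p = 0.44) lost their calls, and Itga2b and Itga4 did not pass the filter.

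Partner genes in endothelium, other genes of basement membrane and matrix, were counted over lists. Of 13 basement membrane genes tested, 12 were called between primary tumor and lung, 10 of them higher, beside 24.3% of all genes, with a list median of 3.21 on the log2 scale beside -0.02 over all genes. Examples are Col18a1 (7.49 ± 0.90), Nid2 (6.79 ± 0.70), Col15a1 (6.1 ± 0.64) and Hspg2 (5.70 ± 0.86), a collagen that yields endostatin, a laminin-binding nidogen, a further collagen of that kind and the proteoglycan perlecan. Of 15 integrin ligands 11 were called, 8 higher, with a median of 1.29, among them Tnc (8.99 ± 1.30), the tenascin bound by Itga9 and Itgav receptors, and Fn1, fibronectin (4.33 ± 0.80). Of 22 adaptors on the inner side of integrins 7 were called, 4 higher and 3 lower, with a median of -0.25. In metastasis against lung 7 basement membrane genes, 4 ligands and 0 adaptors were called, all higher, beside 2.61% of all genes. Between the sites 4 basement membrane genes were called, 1 higher and 3 lower in metastasis, 4 ligands, 2 higher and 2 lower, and 0 adaptors, beside 7.33% of all genes. Tnc, Postn, Inhba, Col15a1, Npnt and Vcam1 also served among the markers that named subtypes.

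Promoters are shown for 3 genes that rose in primary tumor endothelium, Lamb1, Itga5 and Itgav, to set their start regions side by side. The sequences are RefSeq windows of the GRCm38.p6 build from 250 bases before to 50 bases after the gene start, 5' to 3' on the gene's strand, and 23 of the 37 genes had such a window. Lamb1 is at chr12:31265043-31265342 on the plus strand, Itga5 at chr15:103366742-103367041 on the minus strand and Itgav at chr2:83724147-83724446 on the plus strand. Capitals mark the GC box letters GGGCGG, read on either strand, with 2, 2 and 1 matches.
Lamb1 promoter: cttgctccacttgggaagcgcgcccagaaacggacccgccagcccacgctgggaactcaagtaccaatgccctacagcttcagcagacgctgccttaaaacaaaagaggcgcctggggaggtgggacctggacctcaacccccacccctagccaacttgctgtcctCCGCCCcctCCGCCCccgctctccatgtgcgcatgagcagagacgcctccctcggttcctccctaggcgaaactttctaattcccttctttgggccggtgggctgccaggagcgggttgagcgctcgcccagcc
Itga5 promoter: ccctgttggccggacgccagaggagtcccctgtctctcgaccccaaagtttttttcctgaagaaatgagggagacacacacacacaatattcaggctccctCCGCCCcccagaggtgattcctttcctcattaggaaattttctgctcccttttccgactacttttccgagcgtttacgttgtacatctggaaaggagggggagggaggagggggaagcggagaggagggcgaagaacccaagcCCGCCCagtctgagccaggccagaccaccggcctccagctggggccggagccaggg
Itgav promoter: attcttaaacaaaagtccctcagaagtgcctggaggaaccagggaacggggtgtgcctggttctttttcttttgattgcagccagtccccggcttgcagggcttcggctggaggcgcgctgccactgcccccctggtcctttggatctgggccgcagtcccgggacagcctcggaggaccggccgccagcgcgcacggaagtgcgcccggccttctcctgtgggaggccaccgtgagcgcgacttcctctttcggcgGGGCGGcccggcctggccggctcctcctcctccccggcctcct
GGGCGG was found in 35.7% of 32851 promoter windows of this length. The TATA box letters TATAAA were found in 13.6% of windows. In 7.81% the AP-1 letters TGANTCA were found. The hypoxia element letters ACGTG were found in 19.6%. None of the 3 windows printed holds the letters of the TATA box, of AP-1 or of the hypoxia element on either strand. These are matches of letters, not measured binding sites.

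Fibroblasts could be compared in 3 primary tumor libraries (113 to 569 cells) and 3 unchallenged lung libraries (55 to 735 cells), in which all 8 fibroblast markers were present, with the 1 lung metastasis library that held enough of them also in the fit. In primary tumors these cells held more of the receptor chains Itgb3, Itga5, Itga1 and Itgav and less Itga8, while no laminin chain was called. Itgal was called lower too, but it passed the filter on low counts only with the metastasis library in the fit. Of 25 genes tested 6 were called by edgeR's quasi-likelihood test, 4 higher and 2 lower, where 12.6% of all 11186 genes were called, and 12 were at an unadjusted p under 0.05, as were 30.4% of all genes. The median log2 fold change was 0.22 over the 25 genes and -0.01 over all genes. A fit without the metastasis library was run first and was replaced, after its results had been seen, by this one, which holds every tissue. It also called 6 genes, of 17 tested, where 15.4% of all 8806 genes were called, and the calls differed in Itga4 and Itgal.

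Itga8 was at 9.32, 1.52 and 10.1 CPM in primary tumor replicates 4, 5 and 6 and at 981, 248 and 236 CPM in lung replicates 4, 5 and 6. Itgb3 was at 54.6, 89.8 and 91.9 CPM against 3.73, 8.01 and 9.39 CPM, and Itga5 at 91.9, 178 and 220.3 CPM against 7.46, 12.6 and 27.4 CPM. The groups stood apart in all 3 genes, with lung replicate 4 highest in Itga8. Itga8 fell by 5.81 (SE 0.78, adjusted p = 0.0039, edgeR), Itgb3 rose by 3.40 ± 0.38 (adjusted p = 0.0021) and Itga5 rose by 3.30 ± 0.49 (adjusted p = 0.0059) on the log2 scale.

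Itgav was at 130.5, 186 and 200.4 CPM against 70.9, 81.2 and 81.6 CPM, a rise of 1.24 ± 0.28 (adjusted p = 0.026, edgeR). Itga1 was at 314, 179.6 and 276 CPM against 89.5, 45.8 and 126 CPM, a rise of 1.68 ± 0.41 (adjusted p = 0.034). Neither overlapped, but the call for Itgav was lost without primary tumor replicate 5 or 6 or lung replicate 4 (1.18, 1.11 and 1.13), and that for Itga1 without any primary tumor library (1.49, 1.87 and 1.61 without replicates 4, 5 and 6) or without lung replicate 4 or 5 (1.62 and 1.37). Leaving out primary tumor replicate 5 or 6 brought the number of genes called to 3, beside 4.66% and 3.23% of all genes.

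Of the leukocyte integrins, Itgal was at 2.66, 0 and 0 CPM in primary tumor fibroblasts against 3.73, 26.3 and 357 CPM in lung, and fell by 7.72 on the log2 scale (SE 1.85, adjusted p = 0.031, edgeR). The groups did not overlap, yet the lung values spread widely with replicate 6 at the top, and the fold depends on the prior count because 2 primary tumor libraries were at 0. Without lung replicate 6 the change was -4.69 and was not called, nor was it called without primary tumor replicate 4, 5 or 6 (-10.17, -7.46 and -6.33). Itga4 was at 10.7, 4.57 and 10.1 CPM against 29.8, 17.2 and 334 CPM, also without overlap and with lung replicate 6 far above the rest, and was not called (adjusted p = 0.054). In the fit without the metastasis library Itga4 was called (-3.84 ± 1.05, adjusted p = 0.04, edgeR), and Itgal did not pass the filter on low counts. With the single metastasis library in the fit, a gene passes that filter on 1 library. Of lung and primary tumor, Itgal was high in lung alone, so that little is read from its call.

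The laminin chains of fibroblasts showed no call. Lama2 was at 313, 274 and 218 CPM in primary tumor and 153, 301 and 93.1 CPM in lung (adjusted p = 0.38, edgeR), Lama4 at 285, 377 and 274 CPM against 418, 404 and 131 CPM (adjusted p = 0.91), Lamb1 at 296, 336 and 286 CPM against 466, 237 and 103 CPM (adjusted p = 0.68), and Lamc1 at 322, 416 and 315 CPM against 332, 402 and 142 CPM (adjusted p = 0.59). In each of these chains the lung libraries spread over a wider range than the primary tumor libraries and overlapped them. Lamc3 was at 0, 0 and 0.977 CPM against 18.6, 13.7 and 4.33 CPM, groups that stood apart without a call (adjusted p = 0.055). Lamb2 and Lama5 had adjusted p of 0.53 and 0.59. Among the receptors without a call, Itgb1, Itgb5, Itgb8, Itga6, Itga9, Itga2 and Itga11 had adjusted p of 0.28, 0.83, 0.52, 0.19, 0.13, 0.85 and 0.57, and the leukocyte chains Itgam, Itgax, Itgb2 and Itgb7 of 0.14, 0.19, 0.096 and 0.13.

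**Figure D4:**
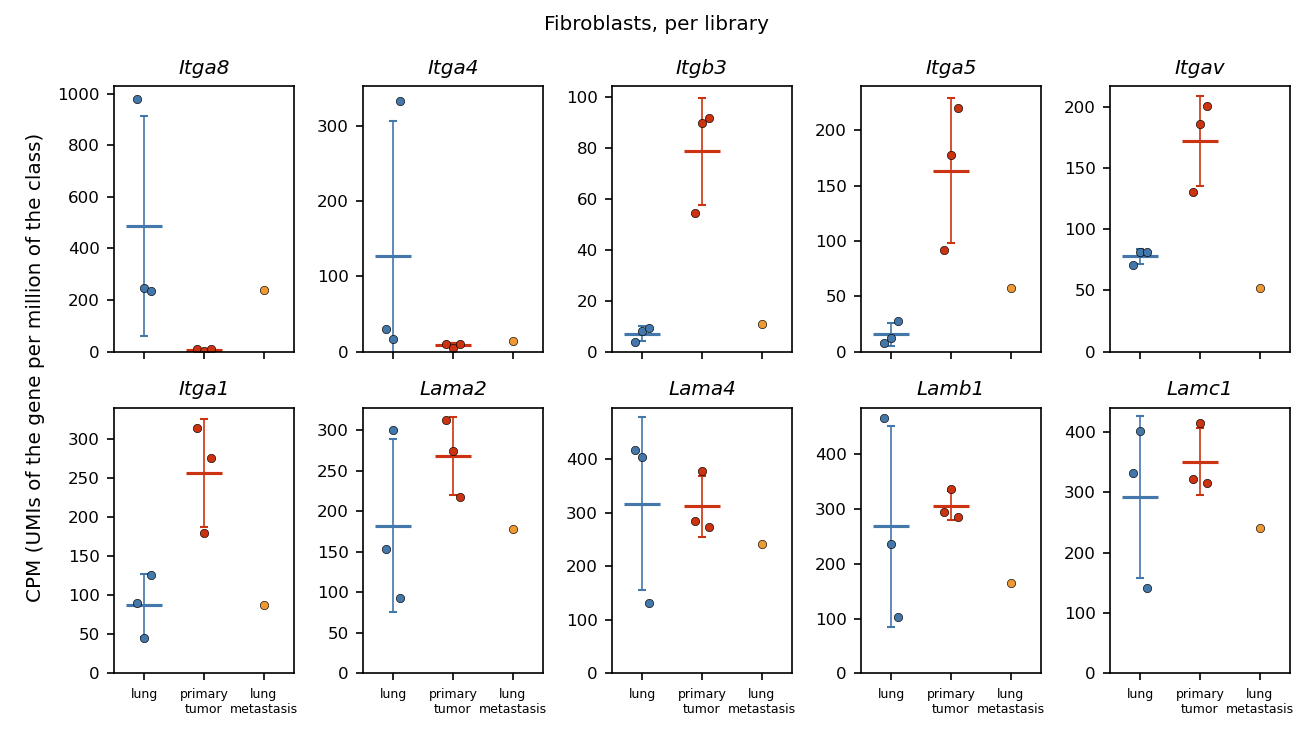
CPM in fibroblasts (vertical axis of each panel) of 10 integrin and laminin genes; each point is a library of unchallenged lung, primary tumor TME or the single lung metastasis library, with mean and SD where there are 3 libraries. Itga8 lies at 236 CPM or above in lung and at most 10.1 CPM in primary tumor, while Lama4 and Lamc1 overlap.

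The fibroblast types also differed. Primary tumors held parenchymal fibroblasts (46.9% to 86.5% of fibroblasts, named from Tnc, Postn and Cthrc1 among others) and adventitial ones, and lungs held alveolar fibroblasts (29.1% to 95.4%) and adventitial ones. Adventitial fibroblasts alone were present with at least 20 cells in both tissues, in replicates 5 and 6. Their name covers 2 clusters, 213 cells with Stc1 and Col12a1 among the leading genes and 173 cells with Clec3b and Pi16. How the tissues divide between these clusters is not given. In adventitial fibroblasts Itgb3 was at 73.9 and 55.2 CPM in primary tumor and 11.2 and 25.4 CPM in lung, and Itga5 at 101 and 144 CPM against 16.0 and 50.8 CPM. Lama2 went the other way, with 170 and 136 CPM against 339 and 317 CPM. Itga8 was low in adventitial fibroblasts of both tissues, at 0 and 3.94 CPM against 11.2 and 12.7 CPM. These are values of 2 libraries a group with no test.

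Markers of other cells moved with the tissue here too. The MM markers summed to 646 to 1661 CPM in primary tumor fibroblasts and to 0 to 3.61 CPM in lung fibroblasts. The neutrophil markers summed to 24.8 to 81.2 CPM in primary tumor and 826 to 7035 CPM in lung, and the 8 alveolar macrophage markers to 3.91 to 12 CPM and 7.46 to 2666 CPM, with lung replicate 6 at the top of both and at the top for Itga4 and Itgal. The 8 NK markers, from a cell type rich in Itga4, summed to 692 CPM in that library and to 1.52 to 3.58 CPM in primary tumor. Their part in the differences was not tested.

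Partner genes of fibroblasts, from the same lists, were called in this comparison as well. Of 16 basement membrane genes 10 were called, 6 higher and 4 lower, beside 12.6% of all genes, with a list median of 1.11 beside -0.01 over all genes. Examples are Npnt, nephronectin and the ligand of Itga8, which fell by 8.85 (SE 0.77), Nid2 (5.00 ± 0.80), Col18a1 (4.04 ± 0.50) and Col4a6, a collagen chain, which fell by 4.97 (SE 1.33). Of 17 ligands 9 were called, 6 higher, with a median of 0.99, among them Spp1, osteopontin (8.07 ± 1.18), Postn, periostin (7.93 ± 1.00) and Tnc (7.36 ± 1.10). Of 24 adaptors 6 were called, 2 higher and 4 lower, with a median of -0.31, among them Tln2, a talin (3.83 ± 0.29), and Tns1, a tensin, which fell by 3.04 (SE 0.47). Npnt, Tnc, Postn and Col15a1 are among the genes that named the fibroblast types.

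Lung metastases gave fibroblasts in number in replicate 5 alone (90 cells). Cells named mesothelial are not among them. The larger mesothelial cluster had Wt1, Lgals7, Cxadr, Saa3, Clu and Wnt4 among its leading genes, which the authors give for the fibroblast cluster they name after metastasis. The fibroblast results here leave such cells out. A test of the replicate 5 library takes it to vary like the libraries of the other tissues, which these data cannot show. In it Itga8 was at 238 CPM, Itgb3 at 11.0, Itga5 at 57.5, Itgav at 52.1, Lama2 at 178 and Lama4 at 241 CPM. Of its fibroblasts 72.2% were alveolar (65 cells), 22.2% adventitial and 5.56% parenchymal, whereas primary tumor fibroblasts held no alveolar cells, so that values of this library and of primary tumor come mostly from different clusters. Itga8, Itgb3 and Itgav lay nearer to the lung libraries than to primary tumor, and Itga5 between them. The paper explains metastasis cells in alveolar fibroblast clusters by some adjacent tissue without tumor in the metastasis samples. Which cells of this library came from such tissue is not known, so that the values are not read as those of metastasis fibroblasts alone. Against primary tumor 1 of 25 genes was called, where 0.876% of all genes were called: Itga8 was higher in the metastasis library by 4.92 ± 0.86 on the log2 scale (adjusted p = 0.047, edgeR). Itga8 was the gene near to a marker of alveolar fibroblasts, and the part of the fibroblast types was not tested. The call was lost without primary tumor replicate 4, 5 or 6 (5.06, 4.57 and 5.36), and the number called was then 0. Against lung edgeR called 0 of 25, where 0.0536% of all genes were called, with 1 of the 25 at an unadjusted p under 0.05 (11.3% of all genes). DESeq2 also called 0, beside 0.380% of all genes. Of the partner genes, Npnt rose by 8.15 ± 0.80 and Tln2 fell by 2.97 (SE 0.45) from primary tumor to metastasis, and 0 of 16 basement membrane genes, 0 of 17 ligands and 0 of 24 adaptors were called against lung.

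With mural and mesothelial cells added (432 and 50 named stromal cells in metastasis replicates 5 and 6, of which 212 and 31 were mesothelial), a set chosen after the data were seen, 1 of 27 genes was called against primary tumor, where 1.99% of all genes were called. It was Itgb3, which fell by 2.14 (SE 0.45, adjusted p = 0.04, edgeR), while Itga8 was not called (2.23, adjusted p = 0.15). Metastasis cells of this set were 49.1% and 62.0% mesothelial and 1.16% and 8.0% parenchymal fibroblasts in replicates 5 and 6, and primary tumor cells 41.4% to 70.7% parenchymal fibroblasts, the type highest in Itgb3, and at most 1.56% mesothelial in replicates 4, 5 and 6. The part of the types was not tested. Against lung 0 of 27 were called by edgeR, where 2.63% of all genes were called.

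The difference between the classes was tested directly in 6 libraries that held both fibroblasts and endothelial cells, with the library as a block. Of 25 genes tested, 9 were called, where 9.64% of all 10543 genes were called. The change from lung to primary tumor was lower in fibroblasts than in endothelium for Lamb1 (-8.29 ± 0.72 on the log2 scale, adjusted p = 0.00015, edgeR), Itga8 (-7.97 ± 1.43, adjusted p = 0.0057), Itga2b (-5.84 ± 0.97, adjusted p = 0.0039), Lama4 (-5.55 ± 0.57, adjusted p = 0.00031), Itga9 (-3.34 ± 0.54, adjusted p = 0.0035) and Lamc1 (-2.59 ± 0.54, adjusted p = 0.013). For Itga8 and Itga2b these values rest on few UMIs in one class: Itga8 did not pass the filter in endothelium alone, with 0, 1 and 3 UMIs in primary tumor and 3, 2 and 1 UMIs in lung replicates 4, 5 and 6, nor Itga2b in fibroblasts alone, with 6, 8 and 14 against 1, 6 and 10 UMIs. Both entered through the class where they are high, their folds depend on the prior count, and the other 7 genes were tested in both classes. The difference was higher in fibroblasts for Itga1 (4.56 ± 0.47, adjusted p = 0.00031), Itgb5 (2.99 ± 0.56, adjusted p = 0.007) and Itga5 (1.89 ± 0.50, adjusted p = 0.039). Itga1 thus rose in one class and fell in the other. For Itgb3 and Itgav, which rose in both, no difference was called (adjusted p of 0.99 and 0.69). The Itga5 call was lost without primary tumor replicate 5 or 6 or lung replicate 4 or 5 (1.76, 1.75, 1.67 and 1.65), and the Itga8 and Lamc1 calls without primary tumor replicate 6 (-7.30 and -2.16). Without endothelial cluster 8, 5 of 24 genes were called, Lamb1, Itga8, Lama4, Itga1 and Itga5, where 4.41% of all genes were called. Lamc1 (-1.84, adjusted p = 0.062, edgeR), Itga9 (-2.67, adjusted p = 0.067) and Itgb5 (2.24, adjusted p = 0.19) lost their calls, and Itga2b did not pass the filter.

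**Figure D5:**
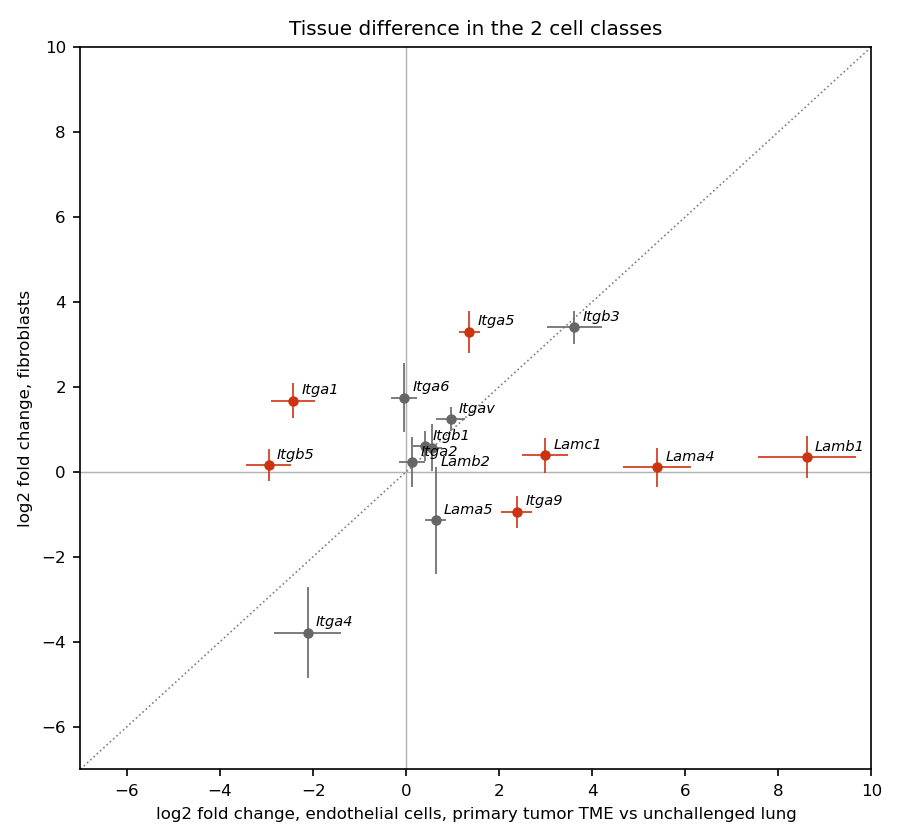
Log2 fold change from unchallenged lung to primary tumor in endothelial cells (horizontal axis) and in fibroblasts (vertical axis) for 15 integrin and laminin genes tested in both; bars are SEs and red marks genes whose difference between the classes was called. Lamb1, Lama4 and Lamc1 lie to the right near the zero of the vertical axis, Itgb3 and Itga5 in the upper right, and Itga1 in the upper left.

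In phagocyte clusters 6, 9 and 10, cells with 7 of 8 markers of complement-rich tissue macrophages raised, 11 genes were tested in 2 primary tumor and 4 lung libraries and 2 were called, both lower in primary tumor, where 6.21% of all 5106 genes were called. Itga9 was at 41.3 and 36.0 CPM in primary tumor replicates 1-3 and 4 against 107, 129, 108 and 65.4 CPM in lung replicates 1, 4, 5 and 6, and fell by 1.36 (SE 0.31, adjusted p = 0.016, edgeR). Itgav was at 57.5 and 65.3 CPM against 113, 117, 114 and 153 CPM, and fell by 1.01 (SE 0.26, adjusted p = 0.026). The groups did not overlap in either gene. Both calls were lost without either primary tumor library (Itga9 -1.45 and -1.27, Itgav -0.91 and -1.11), that of Itgav also without lung replicate 6 (-0.94). Both genes turned direction when every macrophage cluster was taken (0.99 and 0.27). That set adds alveolar macrophages, with 152, 25, 173 and 3230 cells in lung replicates 1, 4, 5 and 6 and 1 cell in primary tumor replicate 4. Itgam (126 to 259 CPM in lung, 359.6 and 364 CPM in primary tumor), Itgb2, Itgax, Itgal, Itga4 and the others were not called, with adjusted p of at least 0.086. The clusters differed between the tissues: cluster 10 gave 88 and 511 cells in the primary tumor libraries and 1, 0, 4 and 1 in lung, and cluster 6 gave 147 and 884 against 21, 25, 13 and 33. Cluster 9, led by the MM marker Dct and by no marker of its own list, gave 194 of the cells of lung replicate 6 and 303 of those of primary tumor replicate 4. Without it, a choice made after the data were seen, both genes were still called of 10 tested, in 2 primary tumor and 3 lung libraries since lung replicate 5 then held 17 cells (Itga9 -1.71 ± 0.30, adjusted p = 0.0046, and Itgav -1.39 ± 0.35, adjusted p = 0.038, edgeR), where 3.27% of all genes were called. Within cluster 6 alone Itga9 was at 61.4 and 52.8 CPM in primary tumor against 119, 138 and 128 CPM in lung replicates 1, 4 and 6, and Itgav at 64.5 and 94.3 CPM against 97.0, 111 and 270.0 CPM, values with no test. In these cells the MM markers summed to 297 and 454 CPM in primary tumor and 0 to 18.9 CPM in lung. Other lists ranged widely in lung: the club cell markers summed to 11.7 to 3459 CPM against 0 to 0.411 CPM in primary tumor, the neutrophil markers to 19.6 to 3376 CPM against at most 110.0 CPM, the alveolar macrophage markers to 7.82 to 1291 CPM against 116 to 132 CPM, and the AT2 markers to 15.6 to 553 CPM against 43.7 to 91.3 CPM. Their part was not tested. The number called was 4 without lung replicate 4, beside 5.64% of all genes, and 1 without lung replicate 6, beside 3.18%.

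MM cells were compared in 2 sorted libraries from each site. Metastasis replicate 4 was mixed: 43.9% of its 638 cells were MM cells (280 cells), 13.5% B cells and 9.88% neutrophils, where MM cells made up 95.8% to 99.8% of the other 3 libraries, and only the MM cells were summed. By edgeR 0 of 23 genes were called between metastasis and primary tumor, where 0.0280% of all 14294 genes were called, with 4 of the 23 at an unadjusted p under 0.05 (3.25% of all genes). DESeq2 also called 0, beside 0.123% of all genes. Itgb1 was at 1164 and 529 CPM in metastasis replicates 4 and 5 against 649 and 651 CPM in primary tumor. Itga1 was at 119 and 143 CPM against 212 and 315 CPM, and Itga2 at 3.44 and 8.21 CPM against 12 and 23.5 CPM. Neither of these collagen receptor chains passed the test (adjusted p of 1.0 and 0.73, edgeR). With 2 libraries a site, a lack of overlap in them says little. Replicate 5 of both sites came from the same mouse, replicate 4 from different mice. With the replicate number as a block 1 gene was called, where 0.826% of all genes were called: Itga2, lower in metastasis (-1.57, adjusted p = 0.0077, edgeR).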

How the data were processed

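Cells of mT/mG mice were cryopreserved, sorted and sequenced with a 3' droplet kit. The deposited UMI counts per cell were made by the authors with Cell Ranger 6.1.1 on GRCm38, and they filtered cells by quantiles of detected genes and of mitochondrial and ribosomal share. The processing notes also name mm10 and Seurat 3.2.2. The deposited log-normalized table was not used. Libraries with identical counts were counted once under the lower replicate number, and 1 library name matched to no label was left out. That name held the same 1036 barcodes and counts as lung metastasis TME replicate 6. It reads as tumor cells of a lung metastasis from another mouse, so that the deposit names this library in conflicting ways. The names of replicates 1-3 of a TME group were summed as 1 library. The library names give the mouse of each library, and p-values measure the spread between libraries. No doublets were removed and no caller was run.

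Here cells were clustered with Seurat 5.3.0 (R 4.3.3; 2000 variable genes without the members; 17 components, 12 for subclusters; 20 neighbours; resolution 0.5) and named from marker lists. UMIs were summed per library and class, with at least 20 cells, and tested with edgeR 4.0.16 (quasi-likelihood, TMM, filterByExpr, Benjamini-Hochberg adjustment over all genes tested, threshold 0.05, two-sided). Scripts were written in Python 3.11.15 and R. Alternatives were DESeq2 1.42.0, RLE scaling, no filter, other cell sets, 10 cells, replicates 5 and 6 only, a replicate block and leaving out each library. Named stromal cells and the sets without endothelial cluster 8 or phagocyte cluster 9 were chosen after seeing the data.

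The fibroblast fit was changed after results had been seen. It was first run on tissues with at least 2 libraries and then with every tissue, as the written design had it. The members and lists were chosen with earlier results of these data known. Every called member is named with values, in the primary tumor endothelium the 12 with the largest changes at a mean of at least 5 CPM and the remaining one, and members with a known role are given whether called or not. The level of 1 member is not reported here. Partner lists are given by counts and up to 4 examples. The test was tried on simulated data with 200 changed genes. Replicate numbers were checked for pairing. By the library names, replicates 1-3, 5 and 6 of both tumor sites share mice and replicate 4 does not (correlations in endothelium of 0.14, 0.14, 0.22 and -0.05), and MM replicate 5 is of 1 mouse. Lung mice are separate, and in no comparison with lung that had 3 or more pairs did every pair correlate above 0.1. The 95% counting intervals cover counting error only.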

Additional observations from a re-analysis of the deposited data

Results flagged for a closer look

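In a group of 4 libraries, 1 library stood far from the other 3 in 7 of 68 groups tested. For independent groups of normal values chance marks about 1 in 20, but these groups share the same libraries. The share over all genes was not computed, so that the count is not read as a trait of integrins and laminins. In phagocyte clusters 6, 9 and 10 of unchallenged lung, Itgav was at 153 CPM in replicate 6 against 113 to 117 CPM in the others, and Itgax at 149 CPM in replicate 4 against 194 to 198.5 CPM. In endothelial cells of lung metastasis, Itgb4 was at 161 CPM in replicate 6 against 16.7 to 19.8 CPM. In primary tumor endothelium, replicate 6 stood apart with 125 CPM of Itga3 against 56.2 to 66.5 CPM and with 4.09 CPM of Itgb5 against 9.63 to 10.2 CPM. In lung endothelium, Itga3 was at 97.3 CPM in replicate 4 against 160 to 170 CPM, and Itga4 at 51.0 CPM in replicate 6 against 15.7 to 16.1 CPM.

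In 9 genes the change from unchallenged lung to primary tumor differed between fibroblasts and endothelium by the test of that difference. As fibroblast minus endothelial change on the log2 scale, it was -8.29 for Lamb1, -7.97 for Itga8, -5.84 for Itga2b, -5.55 for Lama4, -3.34 for Itga9 and -2.59 for Lamc1. It was 4.56 for Itga1, 2.99 for Itgb5 and 1.89 for Itga5. Itga8 did not pass the filter on low counts in endothelium alone, nor Itga2b in fibroblasts alone, so that their values rest on few UMIs in that class.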

How the results depend on the processing

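Of 560 log2 fold changes of called genes under an alternative, 483 kept their direction and call, 75 kept the direction without the call and 2 reversed. Both reversals were in phagocyte clusters 6, 9 and 10 when all macrophage clusters were taken (Itga9 0.99, Itgav 0.27). That setting adds alveolar macrophages, a type nearly absent from primary tumor, and their part was not tested. Numbers of genes called moved by over 1.5 times as follows, each with the percent of all genes called under that setting. For fibroblasts of primary tumor against lung (6) they were 13 with no filter (12.6%) and 3 with replicates 5 and 6 only (3.98%), and with 1 library left out 3 to 8 (3.23% to 14.1%). The first fit, on tissues with at least 2 libraries, also gave 6, with Itga4 in place of Itgal. For metastasis against primary tumor fibroblasts (1) they were 2 with no filter (1.79%), 0 with replicates 5 and 6 only (0.357%), 0 with all stromal subclusters (1.19%) and 0 to 0 with 1 primary tumor library left out (0% to 0.340%). Metastasis against lung fibroblasts stayed at 0 under all alternatives run. For endothelium of metastasis against primary tumor (6) they were 11 by DESeq2 (4.34%), 10 with no filter (4.59%), 11 with all subclusters (11.8%), 1 without endothelial cluster 8 (0.944%) and 4 to 9 with 1 library left out (3.42% to 10.9%). Against lung (3) they were 6 with no filter (3.22%), 8 with replicates 5 and 6 only (19.2%) and 3 to 6 with 1 library left out (0.825% to 7.28%). For the phagocyte clusters (2) they were 4 with no filter (5.83%), 1 at a minimum of 10 cells (4.51%), 4 with all macrophage clusters (16.2%) and 0 to 4 with 1 library left out (0.8% to 5.94%). Leaving out 1 library gave 11 to 13 for primary tumor against lung endothelium (18.0% to 22.6%), 6 to 11 for the difference between classes (4.56% to 11.3%) and 0 to 0 for MM (0% to 0.303%). The difference between classes (9) gave 5 without endothelial cluster 8 (4.41%).

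The replicate numbers do not pair tumor with lung libraries, which came from separate mice. With a replicate block the numbers were 7 for fibroblasts (13.3%), 12 for primary tumor against lung endothelium (22.6%), 8 for metastasis against primary tumor (8.20%), 4 for metastasis against lung (2.33%), and 1 in place of 0 for MM (0.826%). Against lung the block lost Itgav in primary tumor endothelium (adjusted p = 0.051, edgeR). A replicate block could not be run for the phagocyte clusters or metastasis fibroblasts, which share fewer than 2 numbers. Replicates 5 and 6 only for the phagocyte clusters, and metastasis fibroblasts without replicate 5, could not be run for want of libraries. DESeq2, which changes the test and the scaling together, put the median log2 change of all genes at 0.21 and 0.22 in endothelium against lung (primary tumor and metastasis), -0.41 in the phagocyte clusters and 0.11 in MM, beside 0.01, 0.04, -0.04 and -0.02 with RLE scaling alone. The metastasis fibroblast comparisons rest on 1 library of 90 cells, with no replicate.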

Other observations

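Lymphatic endothelial cells reached 20 cells in 1 library, primary tumor TME replicate 5, with 21 cells. There Lama4 was at 628 CPM (89 UMIs) and Itgb4 at 254 CPM (36 UMIs), values with no replicate.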
